A study of Mus musculus with 17 samples.

Results

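The genes described here encode the mouse G protein-coupled receptors for serotonin, dopamine, adrenaline and noradrenaline, histamine, acetylcholine, glutamate, GABA, adenosine and endocannabinoids. They were chosen by symbol from the protein-coding genes of the RefSeq annotation of build mm10: 51 genes of 21887, in 10 receptor classes. The values are H3K27ac peaks of the mouse hypothalamus, a brain region that controls feeding, sleep, body temperature and the pituitary. H3K27ac, acetylation of lysine 27 of histone H3, marks active promoters and enhancers. It was mapped in bulk tissue by CUT&Tag, in which an antibody directs the Tn5 transposase to marked chromatin. The labels list 3 such samples, titled as biological replicates, and, by Paired-Tag, which joins histone-mark and RNA profiling in single nuclei, 7 sub-libraries of DNA and 7 of RNA. They give hypothalamus as the tissue of every sample and name no strain, sex, age, genotype or treatment. The analysis rests on the peak list that the 3 CUT&Tag samples share, and Paired-Tag data were not used here. That list has 183678 peaks and no value per sample, so there is no spread between animals, no test between conditions and no known depth. In bulk tissue, a mark in fewer cells and a weaker mark in each cell cannot be told apart.

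These receptors are proteins with a bundle of membrane-spanning helices that pass a transmitter's arrival to a G protein inside the cell. Receptors coupled to Gs raise cyclic AMP through adenylyl cyclase, those coupled to Gi lower it and open potassium channels, and those coupled to Gq activate phospholipase C and release calcium. In the hypothalamus they carry the input of brainstem serotonin and noradrenaline neurons, of local histamine and dopamine neurons, and of the abundant glutamate and GABA synapses.

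Annotated starts were given by RefSeq sequence records for 39 of the 51 receptors, 54 starts in all. Of these starts, 48 had a peak within 1 kb, and 69.2% of the 21263 annotated starts of protein-coding genes did. The 6 receptor starts without a peak had few CpG dinucleotides. Their 300-base promoter windows, from 250 bases before the start to 50 bases into the transcript, held 2 to 4 CpG, with a median of 3. The windows of the 48 starts with a peak held 1 to 47, with a median of 16. The ranges overlapped: Adora3 (1 CpG), Chrm5 (3) and the upstream start of Cnr2 (3) had a peak. Among all protein-coding starts the medians were 20 CpG with a peak and 2 without. These are descriptions of starts, which are not independent replicates.

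**Figure D1:**
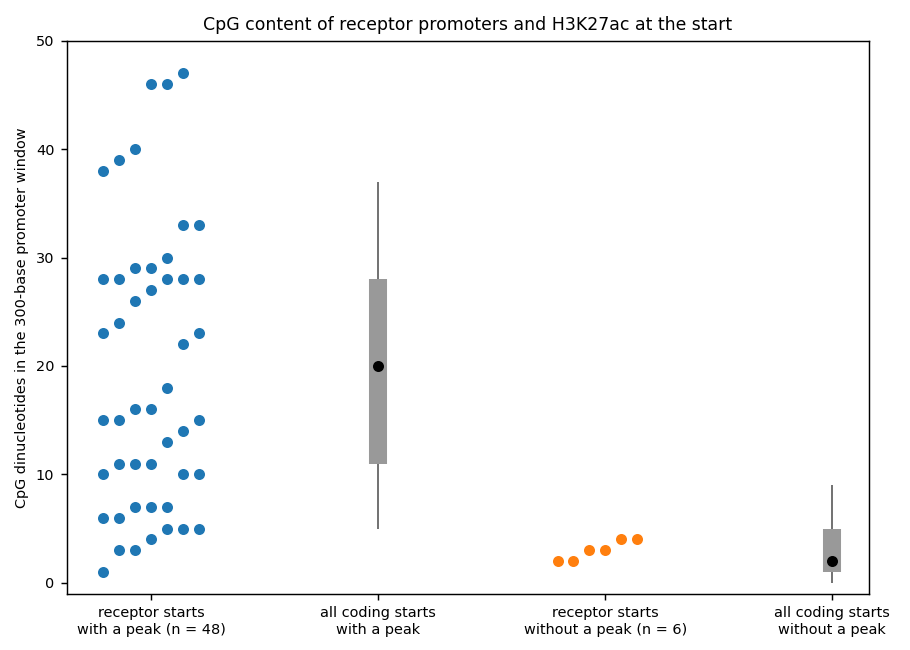
CpG dinucleotides (count, y axis) in the 300-base promoter window of each receptor start (points; side-to-side position has no meaning) and of all protein-coding starts (black point median, grey bar quartiles, thin line 10th to 90th percentile), split by a peak within 1 kb. All 6 receptor starts without a peak lie between 2 and 4 CpG, while the 48 with a peak spread between 1 and 47.

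The promoter sequences (RefSeq, GRCm38.p6, which is mm10) show this contrast, each read 5' to 3' on the strand of its gene, with every CpG in capitals. Adra1b, an alpha-1 adrenergic receptor on the minus strand of chromosome 11, has 2 annotated starts, 13 bp and 64761 bp into its span. The downstream start (chr11:43836440-43836739) lay under a peak of fold 9.64 and has 28 CpG, while the upstream start (chr11:43901188-43901487) has 3, and its nearest peak was 11104 bp away. Hrh2, the Gs-coupled histamine receptor (chr13:54191879-54192178, plus strand), has 16 CpG and lay under a peak of fold 9.07. Htr1f (chr16:65105735-65106034, minus strand, 13 CpG) had the highest fold at an annotated receptor start, 10.2. Htr7 (chr19:36057311-36057610, minus strand) is CpG-rich with 46, and Htr2c (chrX:146962263-146962562, plus strand) had a peak of fold 8.86 over a window with only 5. Drd3 (chr16:43761971-43762270, plus strand, 2 CpG) and Grm6 (chr11:50850435-50850734, plus strand, 4 CpG) had no peak at the start. The downstream start of Adra1b and that of Hrh2 were chosen by a rule, the class's strongest peak overlapping the start, and the others were added after their values were seen.
Adra1b, downstream start, with a peak: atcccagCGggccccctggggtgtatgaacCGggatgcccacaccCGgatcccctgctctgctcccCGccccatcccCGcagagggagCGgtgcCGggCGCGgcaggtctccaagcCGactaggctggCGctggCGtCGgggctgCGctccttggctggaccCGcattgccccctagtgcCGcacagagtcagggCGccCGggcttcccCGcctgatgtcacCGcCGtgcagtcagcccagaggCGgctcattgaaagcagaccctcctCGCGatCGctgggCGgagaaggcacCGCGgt
Adra1b, upstream start, without a peak: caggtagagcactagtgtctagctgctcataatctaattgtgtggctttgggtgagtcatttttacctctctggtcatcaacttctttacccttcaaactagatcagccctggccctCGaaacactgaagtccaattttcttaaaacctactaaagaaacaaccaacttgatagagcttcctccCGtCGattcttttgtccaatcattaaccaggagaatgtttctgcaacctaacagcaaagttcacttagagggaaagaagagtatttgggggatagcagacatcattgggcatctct
Hrh2, with a peak: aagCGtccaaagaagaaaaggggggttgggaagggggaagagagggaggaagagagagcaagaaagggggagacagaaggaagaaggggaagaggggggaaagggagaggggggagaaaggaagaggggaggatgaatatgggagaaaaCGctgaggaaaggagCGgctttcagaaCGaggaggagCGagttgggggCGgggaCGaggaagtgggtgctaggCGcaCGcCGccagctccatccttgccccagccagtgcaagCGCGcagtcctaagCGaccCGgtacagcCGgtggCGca
Htr1f, with a peak: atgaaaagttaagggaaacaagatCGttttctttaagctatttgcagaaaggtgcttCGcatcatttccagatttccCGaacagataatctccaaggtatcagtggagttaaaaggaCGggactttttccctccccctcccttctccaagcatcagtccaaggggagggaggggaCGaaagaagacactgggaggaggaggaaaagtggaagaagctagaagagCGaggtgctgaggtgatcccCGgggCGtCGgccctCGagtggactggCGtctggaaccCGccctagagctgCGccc
Htr7, with a peak: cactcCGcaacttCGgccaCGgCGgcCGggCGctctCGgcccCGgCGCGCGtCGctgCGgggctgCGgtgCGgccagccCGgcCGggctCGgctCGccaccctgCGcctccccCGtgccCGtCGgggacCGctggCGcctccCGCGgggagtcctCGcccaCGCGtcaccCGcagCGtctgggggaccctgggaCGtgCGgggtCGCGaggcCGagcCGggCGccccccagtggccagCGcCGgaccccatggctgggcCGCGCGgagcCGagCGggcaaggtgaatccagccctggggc
Htr2c, with a peak: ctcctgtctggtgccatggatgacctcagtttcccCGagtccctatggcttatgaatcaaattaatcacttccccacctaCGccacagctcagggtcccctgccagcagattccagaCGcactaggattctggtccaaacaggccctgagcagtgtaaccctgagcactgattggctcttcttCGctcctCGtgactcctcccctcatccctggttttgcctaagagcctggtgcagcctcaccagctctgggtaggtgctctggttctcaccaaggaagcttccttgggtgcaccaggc
Drd3, without a peak: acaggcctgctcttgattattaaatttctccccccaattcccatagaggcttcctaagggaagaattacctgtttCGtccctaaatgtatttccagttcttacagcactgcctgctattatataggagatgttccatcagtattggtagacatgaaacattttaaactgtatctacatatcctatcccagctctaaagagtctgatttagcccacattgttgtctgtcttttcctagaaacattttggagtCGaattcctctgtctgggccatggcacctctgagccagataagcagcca
Grm6, without a peak: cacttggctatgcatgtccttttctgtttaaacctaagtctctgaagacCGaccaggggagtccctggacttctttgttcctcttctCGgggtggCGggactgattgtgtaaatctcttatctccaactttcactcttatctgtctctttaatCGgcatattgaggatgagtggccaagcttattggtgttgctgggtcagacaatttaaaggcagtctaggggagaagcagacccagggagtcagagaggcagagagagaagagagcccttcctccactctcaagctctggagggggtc

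Short promoter motifs were searched on both strands in the same windows, and no motif contains another. The GC box GGGCGG was in 32 of the 48 windows with a peak (66.7%), against 62.1% of all protein-coding starts with a peak, and in 0 of the 6 without, against 10.4%. Over all starts it was 59.3% of the receptors', against 46.2%. The TATA motif TATAAA was in 1 receptor window, that of Adra2a (1.85% of receptor starts, against 12.6% of all). Among starts with a peak it was in 2.08%, against 6.95%, and 25.3% of protein-coding starts without a peak had it. CCAAT was in 18 windows (33.3%, against 38.2%), the E-box CACGTG in 3 (5.56%, against 7.84%) and the AP-1 motif TGACTCA in 3 (5.56%, against 4.66%). With a peak, these were 29.2% against 36.9%, 6.25% against 9.62% and 4.17% against 3.62%. The cyclic AMP response element TGACGTCA (2.23% of all starts) and GCATGCGC, part of the NRF1 motif (3.52% of all starts), were in none of the 54. No match says only that these letters are not in the window.

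Every receptor gene had an H3K27ac peak in its span or within 10 kb, but the peaks were of modest strength. All 51 had a peak there (Wilson 95% interval 93.0 to 100.0%), against 79.2% of protein-coding genes. Within 1 kb of an end of the gene span, 47 had a peak (92.2%, interval 81.5 to 96.9), against 69.2% of protein-coding genes. By length, these were 22 of 25 receptors under 20 kb, against 59% of genes of that length, 12 of 13 between 20 and 100 kb, against 79.6%, and 13 of 13 over 100 kb, against 86.3%. Within 1 kb of an annotated start it was 36 of 39 (92.3%, interval 79.7 to 97.3), against 68.3%. In contrast, the highest fold enrichment per gene, the caller's own ratio of signal to background, had a median of 6.30 in the receptors, against 9.47 in protein-coding genes with a peak. By length, the medians were 5.35 against 8.72 under 20 kb and 7.31 against 10.2 between 20 and 100 kb. They were closest over 100 kb, with 8.86 against 9.54. Only 8 of 51 receptors lay above the median of 9.47, where 50% of genes lie by construction. That count was 13 when each peak went to the gene nearest its summit, and 18 when peaks at other protein-coding genes were left out, a setting chosen after seeing the data. A peak in the upper quartile of fold in the list was present at 47 receptors, against 73.9% of protein-coding genes. Wilson intervals cover counting error over genes, and genes are not replicates.

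The peaks at receptor starts were broad and low. Taking the peak of highest fold within 1 kb of a start, the 36 receptors had a median fold of 5.61, with a range of 2.49 to 10.2, against 9.05 in 11948 protein-coding genes. In width they had a median of 1733.5 bp (397 to 3321), against 1271 bp. Of the 36, 32 lay below the median fold of all genes and 25 above their median width. Both held for 23 receptors (63.9%), against 26.7% of protein-coding genes. Adora1, the A1 adenosine receptor that lowers neuronal excitability, had a start peak of 3321 bp at fold 3.90, and Gabbr2 had 2814 bp at 4.98. Adrb1, the main cardiac beta receptor, had 2698 bp at 4.21, and Drd1 had 2521 bp at 8.09. At the narrow end, Drd4 (397 bp, fold 3.61), Cnr2 (400 bp, 3.47) and Adora3 (681 bp, 2.49) were both narrow and low.

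**Figure D2:**
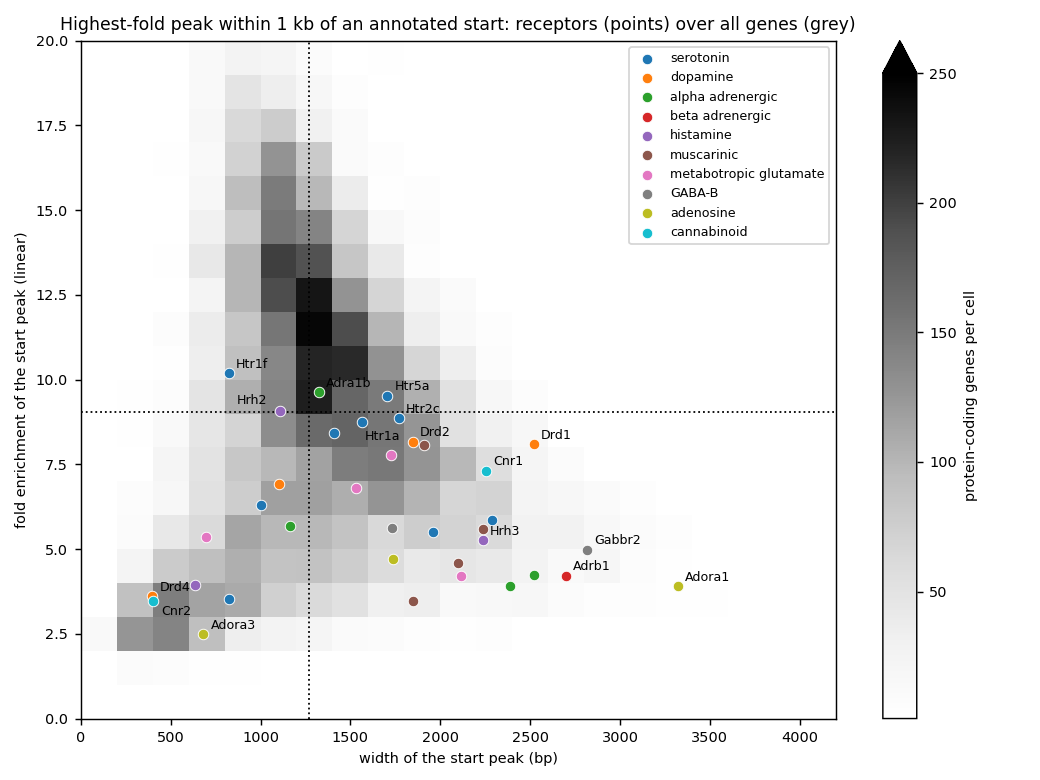
Width (bp, x axis) and fold enrichment (linear, y axis) of the highest-fold peak within 1 kb of an annotated start, for 36 receptors (points, coloured by class) over 11948 protein-coding genes (grey, genes per cell; genes above fold 20 or 4200 bp lie outside the axes). Dotted lines are the medians of all genes, 1271 bp and 9.05, and 23 receptors lie in the lower right quadrant, wider and lower than both.

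Together the receptors met 543 peaks, 0.296% of the list. Their median fold was 3.11, against 3.18 in the whole list, and 121 (22.3%) reached the upper quartile of the list at 4.24. By summit, 438 lay inside the gene span and 105 in the flanks. In the 39 receptors with a known start, the 45 peaks within 1 kb of a start had a median fold of 4.98 and a median width of 1562 bp, against 2.96 and 522 bp for the other 377. The strongest peak was at an annotated start in 22 of 39 receptors (56.4%), against 59.2% of protein-coding genes with a peak. In 11 receptors of the 51 it lay inside the gene, and in 8 in a flank, away from ends and known starts. In 4 (7.84%, against 31.9% of genes) it lay within 1 kb of an end or start of another protein-coding gene, among them Aven at Chrm5, Zfp879 at Grm6 and Fuca1 at Cnr2.

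**Figure D3:**
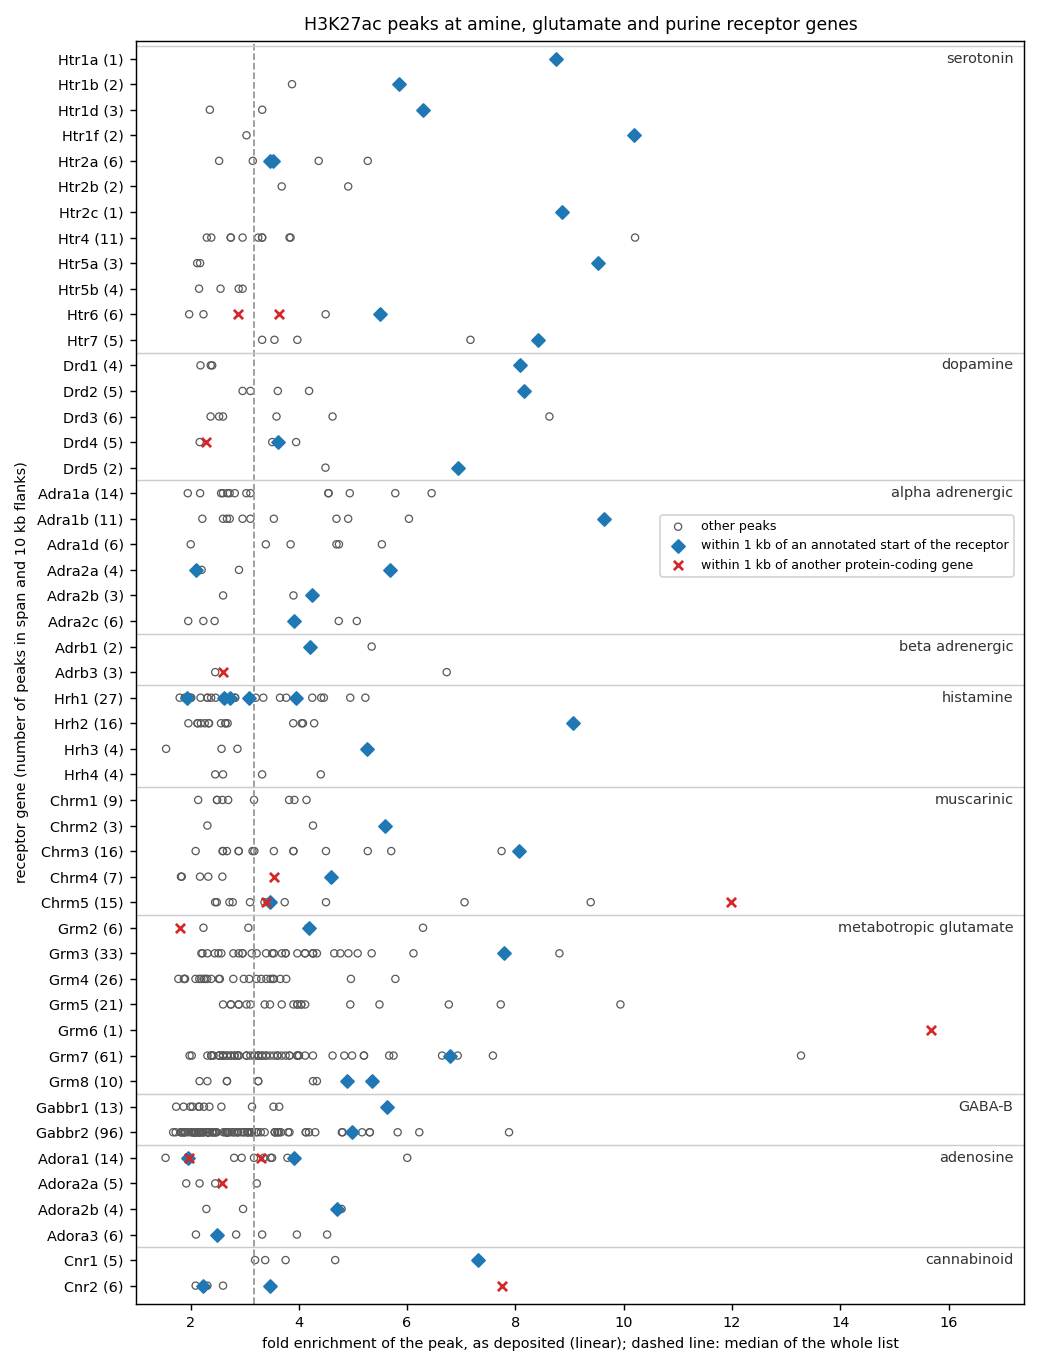
Fold enrichment (linear, x axis) of each of 525 peaks in the span and 10 kb flanks of 49 receptor genes (rows, by class, with the number of peaks). Blue diamonds mark peaks within 1 kb of an annotated start, red crosses peaks within 1 kb of another protein-coding gene, and the dashed line the median of the list, 3.18; most peaks lie near that line, and the start peaks of serotonin and dopamine receptors lie to its right.

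The 12 serotonin receptor genes had few peaks, and most had their strongest at the start. They held 1 to 11 peaks each, with a median of 3 and a density of 6.25 per 100 kb of span and flanks, against 9.47 in protein-coding genes. All 12 had a peak at an end of the span, against 69.2% of protein-coding genes. Htr1a, which encodes the inhibitory autoreceptor of serotonin neurons and also acts on target neurons, had a single peak, of 1562 bp and fold 8.74, beginning 151 bp past its start. Htr1b, the terminal autoreceptor, had a start peak of 5.86 and a second peak of 3.87. Htr1d had 3 peaks, led by the start at 6.30. Its start peak covered the start that lies 1090 bp into the span and began 784 bp downstream of the outer start. Htr1f, 181.1 kb long, had 10.2 at its start, a second peak of 3.03 12.2 kb into the gene, and none in the remaining 168.2 kb.

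Htr2c, the Gq-coupled receptor through which serotonin restrains feeding in the hypothalamus, had a single peak in 234.8 kb, at its start (1769 bp, fold 8.86). Its density was 0.392 per 100 kb, and 3.38% of protein-coding genes over 100 kb had a lower one. Htr2c is on the X chromosome, where the 114 such genes had a median of 1.47 per 100 kb, against 12.1 over all 2429. Its paralogue Htr2a differed in layout: of 6 peaks, the strongest (5.27) lay 18.8 kb inside the gene, and a pair of peaks at the start reached only 3.53 and 3.48. Htr2b, known for its part in heart development, had no peak within 1 kb of its annotated start. Its 2 peaks (4.91 and 3.68) had their summits inside Psmd1, a proteasome gene that overlaps it.

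Htr5a and Htr5b, closely related genes, had unlike values. Htr5a had 9.52 at its start, exceeded at an annotated receptor start only by Htr1f and Adra1b. Htr5b had 4 peaks of 2.16 to 2.96, the lowest maximum of the 51 receptors, and the strongest had its summit inside Ccdc93. The Gs-coupled members had a start or end peak each. Htr4, on chromosome 18, had 11 peaks with 10.2 at the lower-coordinate end of its span, Htr6 had 6 with 5.50 at its start, and Htr7, which takes part in circadian phase shifts, had 5. In Htr7 the start peak (8.42) was followed by an intragenic peak of 7.17 at 54520 bp from the start (chromosome 19, 36002610 to 36003852).

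Among the 5 dopamine receptors, Drd1, Drd2 and Drd5 were marked at the start and Drd3 was not. Drd1, the Gs-coupled receptor, had a start peak of 2521 bp and fold 8.09, and its 3 other peaks did not exceed 2.40. Drd2, the Gi-coupled receptor that restrains prolactin release, had 8.16 at its start and 4 further peaks of 2.96 to 4.19 inside the gene. Drd5 had 6.93 at its start and a second peak of 4.49 at 10280 bp upstream. Drd3, a limbic receptor, had no peak within 1 kb of its annotated start or of an end, and the nearest lay 37399 bp from the start. Its strongest peak (591 bp, fold 8.63, chromosome 16, 43801806 to 43802396) was inside the gene, 39915 bp from the start, with 4 weaker peaks, of 2.37 to 3.59, between 37577 and 51027 bp from the start, and a further one of 4.62 in the flank. Drd4 had 5 peaks of 2.17 to 3.95, with 3.61 at its start. The Drd1-like genes Drd1 and Drd5 had 4 and 2 peaks, against 5, 6 and 5 in the Drd2-like genes Drd2, Drd3 and Drd4.

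The 9 adrenergic receptor genes had a median highest fold of 5.61 in the 6 alpha and 6.73 in the 3 beta genes. In the 3 alpha-1 genes, which are Gq-coupled, Adra1b had 11 peaks. The strongest (9.64) covered its downstream start, and the second (6.03) lay 12.1 kb into the span. Adra1a had 14 peaks, led by 6.45 at 42.7 kb from the lower-coordinate end, with a peak of 3321 bp and fold 4.54 at that end. Adra1d had 6, led by 5.53 at its higher-coordinate end, within 1 kb of an end of the noncoding gene Gm14285. The 3 alpha-2 genes, Gi-coupled brakes on noradrenaline release, are 3.20 to 4.04 kb long and each had a peak at the start, with 5.68 in Adra2a, 4.25 in Adra2b and 3.90 in Adra2c. Adra2c had its strongest peak (5.07) 10709 bp upstream, and its 25.9 peaks per 100 kb were above those of 94.8% of genes under 20 kb.

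Of the beta receptors, all Gs-coupled, Adrb1 had 2 peaks: 4.21 at the start and 5.35 at 12150 bp downstream of it. Adrb3, which drives lipolysis in fat, had no peak within 1 kb of an end of its span. Its strongest peak (1523 bp, fold 6.73) lay inside the 5.07 kb gene, 1.91 kb from the lower-coordinate end, within 1 kb of an end of the noncoding gene Gm45470.

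Histamine receptors had many peaks in Hrh1 and Hrh2 and few in Hrh3 and Hrh4. Hrh1, the Gq-coupled receptor for arousal and the target of sedating antihistamines, had 27 peaks in 85.4 kb, 25.6 per 100 kb, a density above 92.7% of genes of 20 to 100 kb. None was strong: the highest was 5.23, inside the gene, and all 4 annotated starts lay in peaks, with 3.95, 3.95, 2.61 and 3.08 as the highest fold within 1 kb. Hrh2 had 16 peaks in 44.2 kb, led by the start at 9.07, and the next was 4.28. Hrh3, the Gi-coupled autoreceptor of the tuberomammillary histamine neurons, had a start peak of 2236 bp and fold 5.27, within 1 kb of an end of the noncoding gene Gm46782, and 3 weaker ones. Hrh4, a receptor of immune cells, had no peak within 1 kb of an end of its span, and its 4 peaks reached 4.41.

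The 5 muscarinic acetylcholine receptors each had a peak at an end of the gene, against 69.2% of protein-coding genes. Chrm3, Gq-coupled and 485.6 kb long, had 16 peaks: 8.06 at the start, and 7.74 at 470.4 kb into the gene (chromosome 13, 9890391 to 9891170), with 14 others of at most 5.71. A stretch of 165.0 kb of it held no peak. Chrm2, the Gi-coupled receptor known from the heart, had 5.59 at the start, a gap of 117.9 kb, and 2 peaks of 4.26 and 2.31 towards its far end. Chrm4, the other Gi-coupled member, had 4.59 at its start and 7 peaks in all, but only 1 summit was nearer to it than to any other protein-coding gene. Chrm1 had 9 peaks, 22.7 per 100 kb, none above 4.14. Chrm5 overlaps Aven, and its 15 peaks cannot be given to Chrm5 alone: the strongest (12.0) lay at Aven, only 2 summits were nearer to Chrm5 than to any other protein-coding gene, and the peak at the annotated Chrm5 start had 3.47.

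Metabotropic glutamate receptors are the longest of these genes, with a median span of 318.2 kb, and their strongest peaks often lay inside the gene. Grm7, a Gi-coupled group III receptor of presynaptic terminals and 921.9 kb long, had 61 peaks. The strongest (922 bp, fold 13.3, chromosome 6, 111345518 to 111346439) was 700.7 kb into the gene, at no annotated gene end, and exceeded 98.5% of the peaks of the list. The start of Grm7 had 6.79. Over 3 equal parts of its span, from the 5' end, lay 10, 17 and 33 summits. Grm8, of the same group and 860.0 kb long, had 10 peaks, of which a pair of 5.35 and 4.89 lay at the outer starts, and 343.4 kb without a peak. Grm4, also group III, had 26 peaks in 91.4 kb, led by 5.78 at the lower-coordinate end of its span.

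Grm6, the group III receptor of retinal ON bipolar cells, had no peak in its span: the nearest to its start lay 8983 bp away, had a fold of 15.7 and was at Zfp879. In group I, which is Gq-coupled and postsynaptic, Grm5 had 21 peaks with 9.94 at the lower-coordinate end of its span and 7.73 at 342.2 kb from it. In group II, Grm3 had 33 peaks, with 8.81 at 62.9 kb into the gene and 7.78 at the start, and 8 summits between 7.62 and 21.4 kb from the start. Grm2 had 6, with 4.19 at its start and 6.29 upstream of it inside Tex264.

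**Figure D4:**
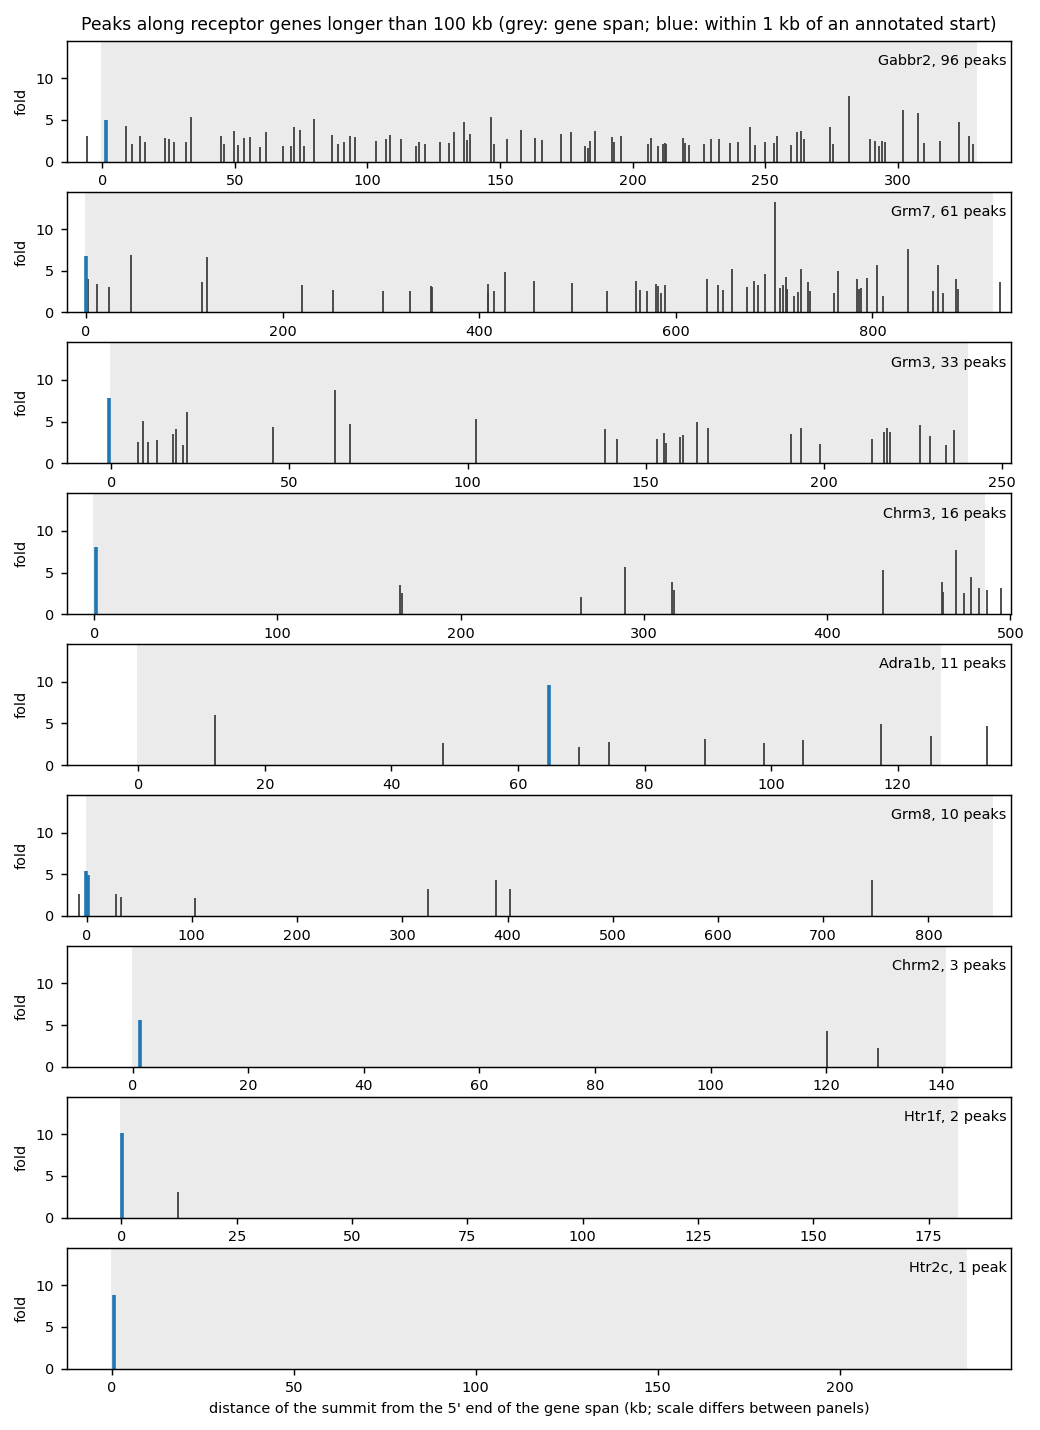
Peaks along the 9 receptor genes longer than 100 kb with an annotated strand: distance of each summit from the 5' end of the gene span (kb, x axis, own scale per panel) and fold enrichment (linear, y axis), with the span in grey and peaks within 1 kb of an annotated start in blue. Gabbr2 is filled evenly by 96 peaks, Htr2c has 1 peak at its start, and the tallest peak of Grm7, at 13.3, stands 700.7 kb into the gene.

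The GABA-B receptor, an obligate pair of Gabbr1, which binds GABA, and Gabbr2, which couples to Gi, had the densest acetylation among these classes. Gabbr1 had 13 peaks in 28.3 kb and 26.9 per 100 kb, above 94.7% of genes of 20 to 100 kb. Gabbr2 had 96 peaks in 329.4 kb and 27.5 per 100 kb, above 92.6% of genes over 100 kb. Peaks covered 20.9% of the span and flanks of each, against a median of 7.50% in protein-coding genes. The Gabbr2 peaks were weak, with a median fold of 2.67, and evenly spread: 32, 32 and 31 summits lay in 3 equal parts of the span, and no gap exceeded 9.90 kb. The starts had 5.63 in Gabbr1 and 4.98 in Gabbr2, and the strongest Gabbr2 peak (7.88) lay 281.4 kb from the start. Gabbr2 alone held more peaks than the 12 serotonin and 5 dopamine receptors together, which had 46 and 22.

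Adenosine receptors had the lowest folds of the classes, with a median highest fold of 4.66. Adora1, Gi-coupled, had 14 peaks, with the strongest (6.00) 8780 bp upstream of the start. Adora2a, the Gs-coupled receptor of striatal neurons that project to the pallidum, had 5 peaks of 1.92 to 3.22. Adora2b had 4.79 inside the gene and 4.71 at its start. Adora3 had 6, led by 4.52 upstream of the start, and none had a summit nearer to it than to every other protein-coding gene. Adora3 lies within Tmigd3. Cnr1, the cannabinoid receptor of presynaptic terminals, had 5 peaks, with 7.31 over the first pair of its 3 starts, and the other 4 between 3.19 and 4.67. Cnr2, a receptor of immune cells, had 3.47 at its upstream start, nothing within 8711 bp of its second start, and a peak of 7.75 shared with Fuca1.

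How many peaks a receptor had followed its length only in part. Across the 51 receptors the rank correlation of span and number of peaks was 0.58, against 0.62 across 21887 protein-coding genes (Spearman, a description over genes, since a longer window meets more peaks). Density ran the other way at the extremes. Of 25 receptors under 20 kb, 21 lay above the median density of genes of that length, 8.28 per 100 kb. Of 13 between 20 and 100 kb, 8 lay above their median of 10.6. Of 13 over 100 kb, 11 lay below their median of 12.1, and only Gabbr2 and Grm3 lay above it. For genes under 20 kb, most of the window is the flanks of 10 kb on either side. Their density is therefore not that of the gene alone. The 6 receptors with over 20 peaks, Gabbr2, Grm7, Grm3, Hrh1, Grm4 and Grm5, held 264 of the 543 (48.6%), while 13 receptors had 3 or fewer. The median was 6 peaks in the receptors and 4 in protein-coding genes, of which 79.2% had any peak. The same split over all protein-coding genes is not given here, so the uneven split is not read as a trait of the receptors.

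**Figure D5:**
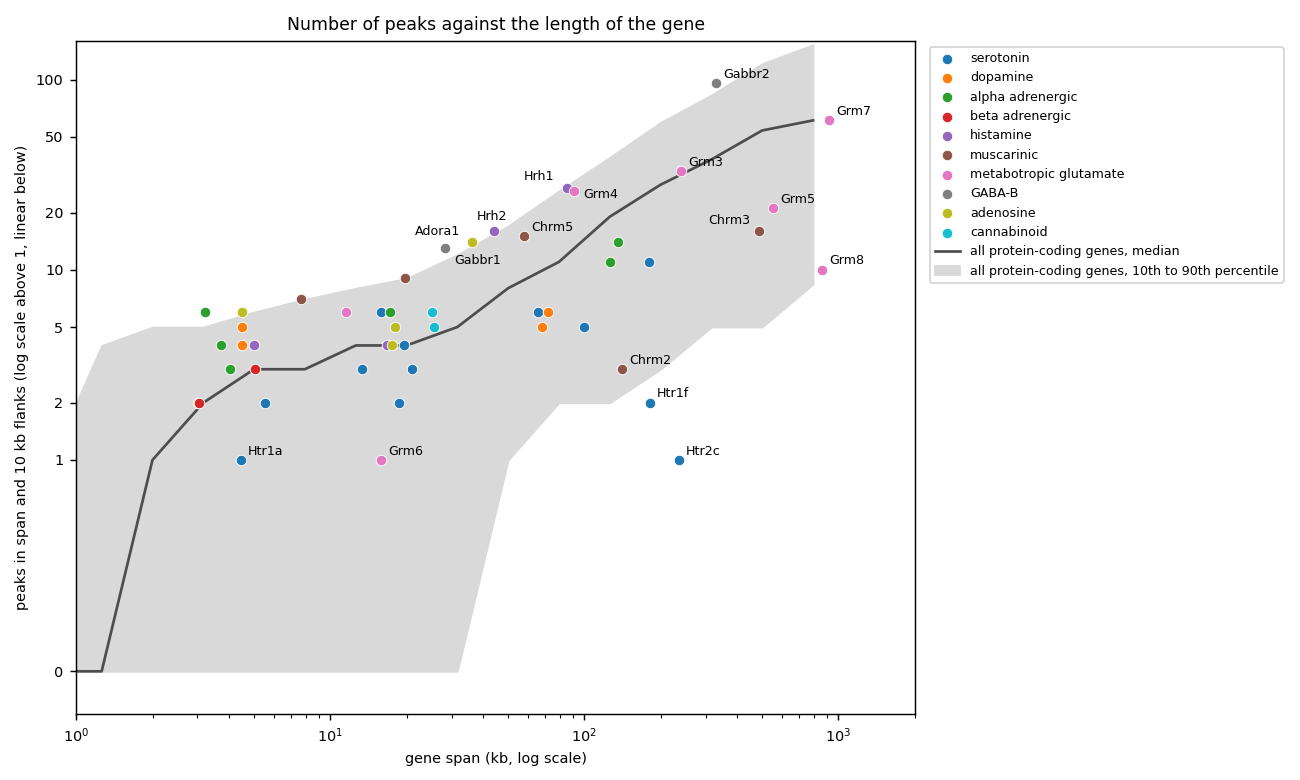
Number of peaks in span and 10 kb flanks (y axis, log scale above 1 and linear below) against gene span (kb, log scale) for 49 receptors (points, by class), over the median and the 10th to 90th percentile of all protein-coding genes in bins of length (line and grey band). Gabbr2 (96 peaks), Hrh1 (27), Adora1 (14), Gabbr1 (13) and Adra2c (6) exceed the 90th percentile of their bin, and Htr1f (2) and Htr2c (1) lie below the 10th.

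By G protein, the classes overlapped. The 12 Gq-coupled receptors had a median highest fold of 7.26, with a range of 4.14 to 12.0, the 28 Gi-coupled receptors 5.93 (2.96 to 15.7) and the 11 Gs-coupled receptors 6.93 (3.22 to 10.2). The maxima of 12.0 (Chrm5) and 15.7 (Grm6) were the peaks at Aven and Zfp879, and the highest not at another protein-coding gene were 9.94 in Gq-coupled (Grm5) and 13.3 in Gi-coupled genes (Grm7). Density was 7.24, 11.7 and 12.0 per 100 kb in the same order, and the Gq-coupled genes were longer, with a median span of 106.0 kb, against 20.2 and 15.9 kb. All 12 Gq-coupled, 25 Gi-coupled and 10 Gs-coupled receptors had a peak at an end.

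A list of genes of signalling partners of these receptors had more peaks per length. It holds 9 G alpha, 8 adenylyl cyclase, 4 phospholipase C beta and 4 inward rectifier channel genes. The others are 6 Rgs genes, 2 arrestins, 3 Homer scaffolds and 4 endocannabinoid enzymes, so not all are downstream effectors. Of 40 such genes, all had a peak in span or flanks, and at an end of the span 39 did (97.5%, against 69.2% of protein-coding genes). Their median density was 21.6 per 100 kb, against 9.47, and their median highest fold 7.77, against 9.47. All 9 G alpha genes had an end peak, with 11.8 at Gnai3, and Gnao1, the main G protein of brain, had 68 peaks but none above 5.55. The 8 adenylyl cyclase genes ran from 4.70 (Adcy5) to 8.45 (Adcy8), and Plcb4, a phospholipase C downstream of Gq, had 107 peaks. Kcnj3, a subunit of the potassium channel opened by Gi, was the member with no peak at an end of its span, but had 6.50 at an annotated start. Rgs2, which switches Gq signals off, had a single peak, of fold 13.4 at its start.

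Of 13 markers of the hypothalamus 12 had a peak at an end, a share of 92.3% against 69.2% of protein-coding genes. The Wilson 95% interval of that share, 66.7 to 98.6%, contains 69.2%, so an excess is not shown. Pmch had no peak in span or flanks. The end folds of the hypothalamic markers were lower, with a median of 5.06 against 8.60, and ran between 2.56 (Oxt) and 14.8 (Pomc). The Pomc value is at an end of the span, and Pomc had no peak within 1 kb of its annotated start. Of the 10 hypothalamic markers with a known start, 8 had a peak there (80.0%, against 68.3%). Striatal markers, some of which the hypothalamus also expresses, had a peak at an end in 9 of 10 genes, with highest folds of 4.42 to 9.96 over the list, beside Drd1 (8.09), Drd2 (8.16) and Adora2a (3.22). Of 6 cortical and hippocampal markers 3 had an end peak, and of glial and vascular lists 5 of 6 astrocyte, 4 of 6 microglial, 3 of 5 endothelial and 5 of 5 oligodendrocyte genes did. The cortical, microglial and endothelial shares lay below the 69.2% of protein-coding genes, but they rest on few genes. Their Wilson 95% intervals (18.8 to 81.2%, 30.0 to 90.3% and 23.1 to 88.2%) all contain 69.2%. So do those of the striatal (59.6 to 98.2%), astrocyte (43.6 to 97.0%) and oligodendrocyte shares (56.6 to 100%). The shares therefore do not rank the cell types. A peak at a marker does not set these tissues and cell types apart. The part of any of these cell types or regions in the receptor peaks was not tested.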

How the data were processed

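H3K27ac CUT&Tag peaks of mouse hypothalamus were read from the list that the 3 bulk samples share, per the labels. The submitters' processing notes name UMI-tools 1.1.4, STAR 2.7.10a, cutadapt 4.5, BWA 0.7.17, MACS2 and mm10, with no role or order. For the caller's settings, the rule that joined the replicates and any blacklist, the sources used here give nothing. The deposited columns have no header and were read in narrowPeak order. The fold ratio deposited by the authors ranked peaks within this list. The −log10 q values deposited by the authors defined a stricter set. The score and p columns were not used.

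Genes were taken from a RefSeq table of GRCm38.p6 (21887 protein-coding genes on the chromosomes of the list), with starts and strand from its promoter records, which cover 39 of the 51 receptors and 17492 protein-coding genes. Coordinates are 1-based. A peak was counted at 1 bp of overlap with the span and 10 kb flanks, or with 1 kb either side of a span end or annotated start. Promoter records were not given for 12 receptors, among them Adora2a, Adra1a, Adra1d, Adrb3, Chrm1, Grm4, Grm5, Hrh4, Htr4 and Htr5b. Some members enter the counts but are not reported here one by one, nor drawn. Peaks that another gene reaches were kept and named. No test was run: the list has no value per sample, and genes are not replicates. The members, lists and measures were chosen with earlier results of these data known. By rule, each class was to name its members of highest fold, of most peaks, and without an end peak; values of other members were added after they were seen. The overlap code was tested on simulated intervals. Python 3.11.15, pandas 2.3.3, SciPy 1.17.1 and matplotlib 3.10.9 were used.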

Additional observations from a re-analysis of the deposited data

How the results depend on the processing

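Of 59 alternative values, 43 stayed within the 95% binomial interval of the main value, or for counts within 1.5 times of it, and 16 moved. Restricted to the upper quartile of peaks by fold, 92.2% of receptors kept a peak in span or flanks (73.9% of protein-coding genes), 66.7% at an end (58.6%) and 66.7% at a start (59.8%). The number of peaks was then 121, the median per receptor 1 and the median covered share 3.48% (3.37%). With peaks above the median −log10 q they were 268, 3 and 5.11% (5.04%). The share with an end peak was 98.04% with windows of 2500 bp (73.6%) and 72.5% when the summit had to lie in the window (65.7%). Without flanks the median per receptor was 3 (2 in protein-coding genes) and the covered share 14.2% (7.29%), and with flanks of 20 kb the median was 7 (6). The receptors above the median highest fold of all genes, 8 in the main setting, were 13 with summits nearest to the gene. They were 18 with peaks at other protein-coding genes left out, a setting chosen after seeing the data. In the settings run, the receptor share exceeded that of protein-coding genes for flanks, ends and starts. The gap was narrower than in the main setting for ends with the summit in the window (72.5% against 65.7%). It was also narrower in the upper quartile of fold, for ends (66.7% against 58.6%) and starts (66.7% against 59.8%). Among other settings that narrowed it, starts with the summit in the window were 82.1% against 66.5%. With peaks above the median −log10 q, starts were 82.1% against 64.5% and ends 82.4% against 64.3%. No interval is given for these shares, so an excess there is not established. The intervals of the main setting cover only counting error over genes, which are not replicates. They do not establish an excess either. The median highest fold stayed lower (5.93 against 7.62 with peaks at other genes left out).

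No paired analysis was possible because the 3 samples have 1 peak list between them, with no value per replicate, and leaving out a replicate was not possible. Depth is unknown, so a gene lacking a peak in this list is not shown to lack the mark.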
